A study of Drosophila melanogaster with 8 samples.

Results

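The Imd pathway genes described here are the 10 intracellular signalling genes from imd to Rel, with the inhibitor pirk. They were chosen by their function, with earlier results of these data known, and found in the count table by FlyBase identifier. All 10 of 10 were among the 17676 genes counted, and all 10 passed the filter on low counts that left 11081 genes for testing. Adult Drosophila melanogaster gave the head RNA; in these flies FBXO11, the substrate-recognition subunit of a ubiquitin ligase, was or was not reduced in neurons by RNA interference. The 8 libraries fall by title into 3 control libraries (genotype entry FBXO11 WT), 3 RNA1 libraries (FBXO11 KD1) and 2 RNA2 libraries, whose genotype entries differ (FBXO11 KD2 for replicate 1, FBXO11 KD3 for replicate 2). The neuronal driver, the interfering constructs, the sex and the age of the flies were not stated in the labels, and no genotype entry is shared between control and knockdown libraries, so genetic background and knockdown cannot be told apart.

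The Imd pathway is the branch of fly innate immunity that answers to the peptidoglycan of mainly Gram-negative bacteria. Receptors at the membrane or in the cytoplasm gather the adaptor imd, which recruits Fadd and the caspase Dredd. Ubiquitin chains built by Diap2 then bring in the Tak1-Tab2 kinase and the IKK complex of IKKbeta and key. IKK and Dredd act on Rel, the NF-kappaB factor whose freed part enters the nucleus and switches on antibacterial peptides, and pirk is a target gene that feeds back on the receptors. The fat body and blood cells are the best known sites of this response, and neurons and glia use parts of it as well.

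As a check of the labels, FBXO11 itself had 103 ± 5.29 CPM in control (CPM, reads per library scaled to the same total; mean ± SD, n = 3). It fell to 39.9 ± 2.52 CPM over the 3 RNA1 libraries and to 48.8 ± 5.54 CPM over the 2 RNA2 libraries. Libraries held 32434805 to 41589222 counted reads, and no pair of replicates agreed within sampling noise. Head tissue was evident from ninaE, the main rhodopsin of photoreceptors, at a mean of 27380 CPM in control, and from the neuronal gene elav at 190.3 CPM. The least counted of the 10 genes, Fadd, had 149 to 289 reads per library, and the most counted, Rel, had 6841 to 11555. Heads mix neurons, glia, muscle, fat body and blood cells, so a level is an average in which fewer cells of a type and less RNA per cell cannot be told apart.

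The genes lie apart from each other on 3 chromosomes. In the BDGP6 annotation, imd (FBgn0013983) is at 2R:18409796-18413599, Diap2 (FBgn0015247) at 2R:15932170-15934825 and key (FBgn0041205) at 2R:24785514-24787411, all on the minus strand. Tab2 (FBgn0086358) is at 2R:19292529-19304508 on the plus strand and pirk (FBgn0034647) at 2R:21660967-21662995 on the minus strand. Fadd (FBgn0038928) is a gene of 1 exon at 3R:22034455-22035617 on the plus strand. IKKbeta (FBgn0024222) is at 3R:16046347-16049421 and Rel (FBgn0014018) at 3R:9044183-9047977, both on the minus strand. On the X chromosome, Dredd (FBgn0020381) is at X:633622-635545 and Tak1 (FBgn0026323) at X:20515908-20524928, both on the minus strand. Tak1, Tab2 and pirk overlap no other annotated gene.

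Since no source states how reads were assigned at overlaps, the overlapping genes were examined as well. On the opposite strand, imd shares 40 exon bases with GstE9, Dredd 12 with Mybbp1A, Diap2 1 with bug and key 29 with CG3589. Fadd and Rel share 0 exon bases with pit and Nmdmc, the genes that overlap them on the same strand. IKKbeta shares 201 exon bases, 8.08% of its exon length, with lncRNA:CR45212 on the same strand, and that RNA had a mean of only 0.0849 CPM in control. Dredd also shares 61 exon bases with mir-9372, which had no read in any library. None of the tested overlapping genes passed the test against control. The lowest edgeR FDR among them was 0.228, for Dp1 in RNA1. Nmdmc, which overlaps the called gene Rel, had log2 0.36 in RNA1 (edgeR FDR 0.545) and 0.43 in RNA2 (FDR 0.592).

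Per kilobase of exon, the control level spanned a wide range among the 10 genes. Diap2 was highest at 63.5 ± 4.53 CPM per kb (SD, n = 3), followed by Rel at 51.4 ± 1.59 and the IKK regulatory subunit key at 44.0 ± 2.42 CPM per kb. Tab2 stood at 19.4 ± 0.603 CPM per kb and its kinase partner Tak1 at 18.2 ± 0.442. The adaptor imd had 11.3 ± 0.246 CPM per kb and the caspase Dredd 9.66 ± 0.396. At the low end were pirk with 8.16 ± 1.83, the kinase IKKbeta with 6.12 ± 0.245 and the adaptor Fadd with 5.35 ± 0.605 CPM per kb. The control ranges of neighbours in this order overlapped for Dredd and pirk and for IKKbeta and Fadd. The subunits of the IKK complex thus differed widely in level per exon length, key being the high one and IKKbeta the low one in every control library.

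**Figure D1:**
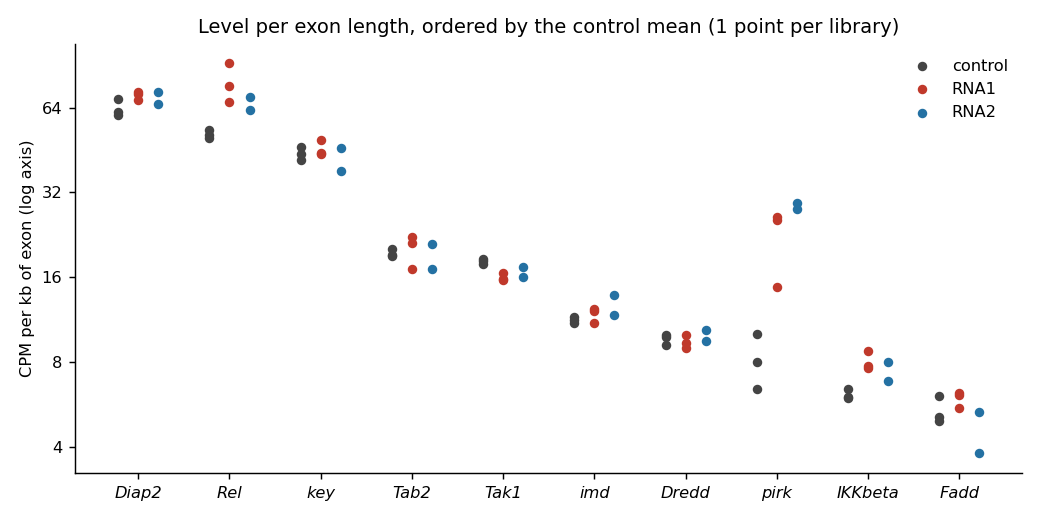
Level of each Imd pathway gene per kilobase of exon (CPM per kb, log axis), ordered by the control mean, with 1 point for each of the 3 control, 3 RNA1 and 2 RNA2 libraries. Diap2, Rel and key form the upper end in all 3 groups, while pirk moves from 8.16 CPM per kb in control to 22.1 in RNA1 and 28.6 in RNA2.

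In the knockdowns the order changed for Rel in RNA1 and for pirk in both lines. Rel stood at 78.4 ± 12.6 CPM per kb in RNA1 (n = 3), above Diap2 at 70.9 ± 2.42, although their ranges overlapped. In RNA2 Rel reached 66.4 ± 4.77 CPM per kb (n = 2) against 69.4 ± 4.96 for Diap2, again with overlapping ranges. The inhibitor pirk went from eighth to the fourth place in both knockdowns, by means of 22.1 ± 6.40 CPM per kb in RNA1 and 28.6 ± 0.915 in RNA2. In RNA1 its range overlapped those of Tab2 and Tak1, and in replicate 2 pirk, at 14.7 CPM per kb, lay below both. Beyond these moves the order of the means was as in control.

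In RNA1 heads 3 of the 10 genes rose and 0 fell at an edgeR false discovery rate (FDR, adjusted over all genes tested) under 0.05. Among all 11081 tested genes 5.01% rose and 5.25% fell in that comparison. The genes that rose were the feedback inhibitor pirk, the NF-kappaB factor Rel and its kinase IKKbeta. An unadjusted p under 0.05 was reached by these and by Tak1, which was lower, so by 4 of 10 against 26.7% of all tested genes. DESeq2 and limma-voom also called 0 falls. The median log2 fold change of the 10 genes was 0.10 and that of all tested genes 0.01. In RNA2 heads 1 of the 10 genes rose, again pirk, and 0 fell, where 1.76% of all tested genes rose and 2.02% fell. The gene pirk was thus 1 of 10 that rose in both knockdowns, against 1.44% of all tested genes. In RNA2 an unadjusted p under 0.05 was reached by pirk, Rel and IKKbeta, all higher (3 of 10, against 18.4% of all tested genes). DESeq2 and limma-voom called pirk alone there. The median there was 0.09 for the 10 genes and 0.01 for all tested genes. Both comparisons use the same 3 control libraries. With library totals in place of TMM scaling, 733 genes rose and 487 fell in RNA1, in place of 555 and 582, and 242 rose and 186 fell in RNA2, in place of 195 and 224. The same genes of the 10 passed under either scaling.

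**Figure D2:**
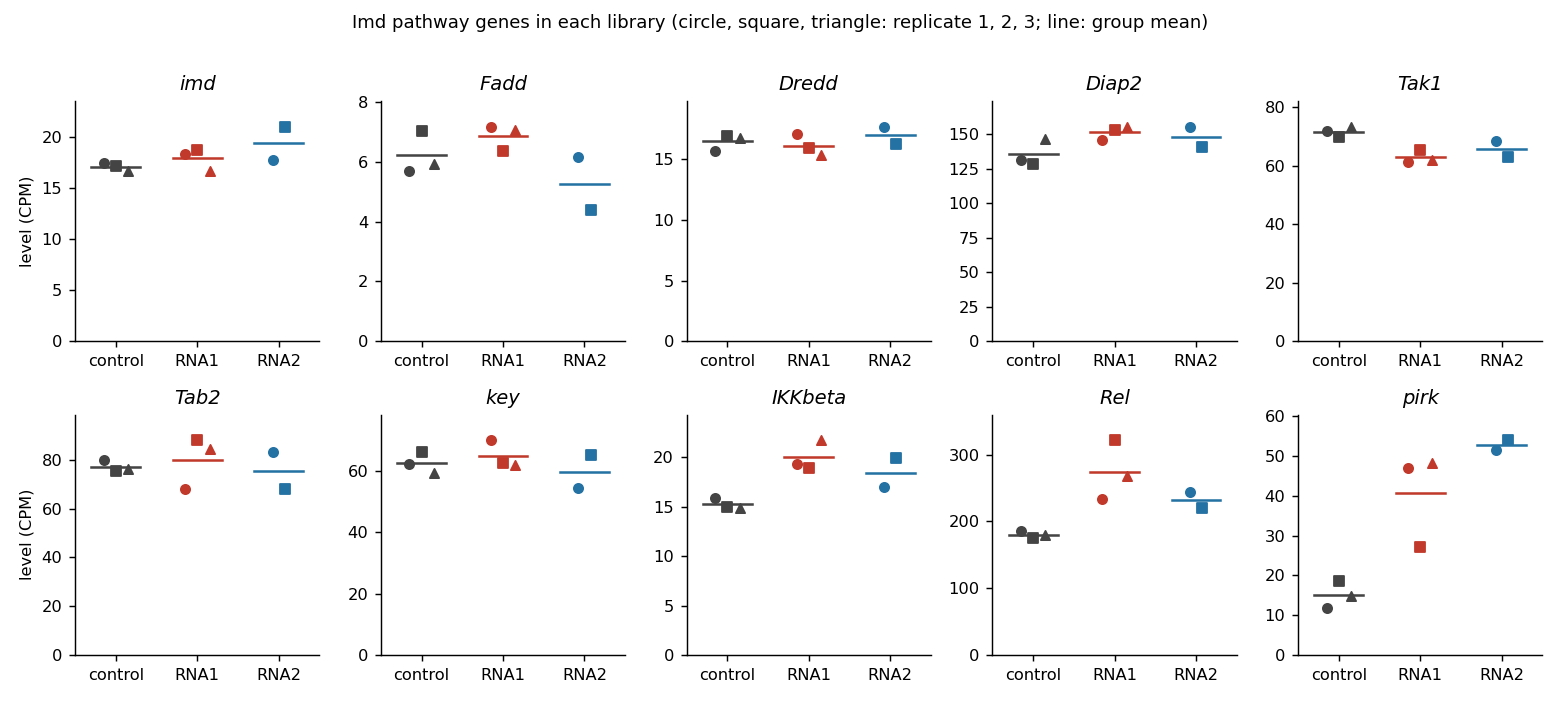
Level of the 10 Imd pathway genes (CPM, axes from 0) in each of the 3 control, 3 RNA1 and 2 RNA2 libraries, with a line at each group mean. IKKbeta, Rel and pirk lie higher in all 5 knockdown libraries than in all 3 controls, Tak1 lies lower, and the other 6 genes overlap.

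Counting libraries without a test, IKKbeta, Rel and pirk were higher in all 5 knockdown libraries than in all 3 controls, and Tak1 was lower in all 5. Of all tested genes, 10.7% were higher and 10.7% lower in this way. Summed over the 10 genes, the level was 597 ± 7.57 CPM in control, 735 ± 45.1 in RNA1 and 694 ± 30.5 in RNA2, and the groups did not overlap between control (588.7 to 603.8 CPM) and knockdown (672.6 to 777.4 CPM). Rel alone made up 68.2% of the difference of this sum in RNA1 and 53.6% in RNA2.

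The receptor-proximal genes come first in the pathway, and none of the 4 passed the test. The adaptor imd carries the death domain that starts the complex. Its levels were 17.5, 17.2 and 16.7 CPM for control, 18.3, 18.7 and 16.7 CPM for RNA1, then 17.8 and 21.0 CPM for RNA2. Control replicates lay close together, RNA1 overlapped them, and both RNA2 libraries lay above them. The log2 fold change was 0.07 ± 0.09 SE in RNA1 (95% interval -0.14 to 0.27, edgeR FDR 0.689) and 0.18 ± 0.10 in RNA2 (-0.05 to 0.41, FDR 0.373).

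Fadd links imd to the caspase. The controls held 5.71, 7.02 and 5.93 CPM of it, RNA1 7.19, 6.37 and 7.08, and RNA2 6.15 and 4.40. RNA1 replicates 1 and 3 lay just above the control range and replicate 2 within it, and RNA2 replicate 2 was the lowest of all 8 libraries. Its fold change had opposite signs in the knockdowns, log2 0.14 ± 0.16 in RNA1 (-0.20 to 0.49, edgeR FDR 0.597) and -0.24 ± 0.18 in RNA2 (-0.63 to 0.16, FDR 0.509).

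Dredd is the caspase that cleaves imd and Rel. The 3 groups overlapped, with 15.7, 17.0 and 16.8 CPM in control, 17.1, 16.0 and 15.3 in RNA1, and 17.7 and 16.3 in RNA2. Log2 fold changes were -0.03 ± 0.08 in RNA1 (-0.22 to 0.16) and 0.04 ± 0.09 in RNA2 (-0.17 to 0.25), with edgeR FDRs of 0.838 and 0.85.

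Diap2 is the ubiquitin ligase of the complex and had the highest control level per exon length. It had 132, 128 and 146 CPM in control, 146, 153 and 155 in RNA1, and 156 and 141 in RNA2. The upper control library reached into the knockdown range, so the groups overlapped. The log2 fold change was 0.16 ± 0.08 in RNA1 (-0.01 to 0.33, edgeR FDR 0.21) and 0.13 ± 0.08 in RNA2 (-0.06 to 0.32, FDR 0.453).

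Next come the kinases and their partners. Tak1, the kinase that feeds both IKK and the JNK cascade, had 71.7, 69.9 and 73.4 CPM in control, 61.4, 65.4 and 61.9 in RNA1, and 68.4 and 63.1 in RNA2. It was the gene of the 10 whose knockdown libraries all lay under the controls. The difference was small and did not pass, log2 -0.19 ± 0.07 in RNA1 (-0.34 to -0.04, unadjusted p 0.0175, edgeR FDR 0.1) and -0.12 ± 0.07 in RNA2 (-0.29 to 0.04, FDR 0.401).

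Tab2, the ubiquitin-binding partner of Tak1, had 79.8, 75.3 and 76.2 CPM in control, 68.1, 88.0 and 84.2 in RNA1, and 83.3 and 67.9 in RNA2. Controls were tight, while knockdown libraries lay on both sides of them in each line. The log2 fold change was 0.06 ± 0.11 in RNA1 (-0.19 to 0.30, edgeR FDR 0.786) and -0.03 ± 0.12 in RNA2 (-0.30 to 0.24, FDR 0.927).

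The regulatory IKK subunit key had 62.2, 66.0 and 59.1 CPM in control, 69.9, 62.5 and 62.0 in RNA1, and 54.3 and 65.2 in RNA2, and the groups overlapped. The log2 fold change was 0.05 ± 0.09 in RNA1 (-0.15 to 0.25) and -0.06 ± 0.10 in RNA2 (-0.29 to 0.16), with edgeR FDRs of 0.749 and 0.779.

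IKKbeta, the catalytic subunit of the same complex, rose in RNA1. It had 15.9, 14.9 and 14.8 CPM in control, 19.3, 19.0 and 21.7 in RNA1, and 17.0 and 19.9 in RNA2. Every knockdown library lay above every control, and RNA2 replicate 1 was the closest to them. The rise in RNA1 was 1.31-fold (log2 0.39 ± 0.09, edgeR FDR 0.0303, higher in 3 of 3 libraries). In RNA2 the value was log2 0.28 ± 0.11 (0.04 to 0.51, unadjusted p 0.027, FDR 0.199). The RNA1 call of IKKbeta was lost without any 1 of the 3 controls (FDR 0.0744, 0.103 and 0.0995) or without RNA1 replicate 2 (0.0615) or 3 (0.0836).

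Rel is the transcription factor at the end of the pathway and had the highest read count of the 10 genes. Controls held 186, 175 and 179.6 CPM, RNA1 held 234, 321 and 268, and RNA2 held 244 and 220.4. The controls lay within a narrow band and all 5 knockdown libraries lay above it, RNA1 replicate 2 being the highest. Rel rose 1.52-fold in RNA1 (log2 0.61 ± 0.11, edgeR FDR 0.00973), higher in 3 of 3 libraries. In RNA2 it had log2 0.37 ± 0.12 (0.09 to 0.64, unadjusted p 0.0136, FDR 0.143), with 2 of 2 libraries higher. Without control replicate 2 the FDR in RNA1 was 0.052.

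The inhibitor pirk, which binds receptor and imd and is itself induced through Rel, had the largest change of the 10 genes in both knockdowns. Controls held 11.8, 18.6 and 14.8 CPM, RNA1 46.9, 27.2 and 48.2, and RNA2 51.5 and 53.9. It was also the gene with the widest spread in control, with a coefficient of variation of 22.5% against 2.18% to 11.3% for the other 9. RNA1 replicate 2 lay between the controls and the other knockdown libraries. The rise was 2.70-fold in RNA1 (log2 1.43 ± 0.25, edgeR FDR 0.0144) and 3.50-fold in RNA2 (log2 1.81 ± 0.27, FDR 0.0143). Without control replicate 3 the FDR was 0.0558 in RNA1 and 0.0628 in RNA2, and without RNA2 replicate 1 it was 0.0727 in RNA2.

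**Figure D3:**
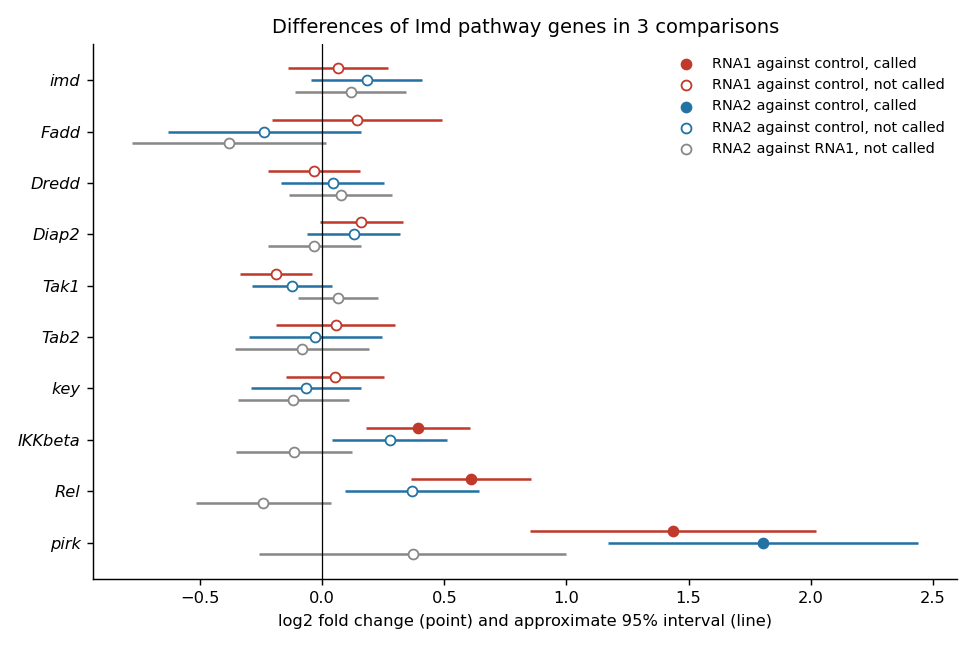
Log2 fold change of each Imd pathway gene (points, filled where the edgeR FDR was under 0.05) with its approximate 95% interval (lines) for each line against control and for the lines against each other. The filled points are IKKbeta (0.39), Rel (0.61) and pirk (1.43) in RNA1 and pirk (1.81) in RNA2, and the intervals of RNA2 against RNA1 all include 0.

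Whether the lines differ was tested directly. The RNA2 libraries carry different genotype entries, so this test and the RNA2 spreads may mix genotypes. Between RNA2 and RNA1 edgeR called 0 of the 10 genes, where 0.28% of all tested genes passed. An unadjusted p under 0.05 was reached by 0 of the 10 and by 7.66% of all tested genes, and DESeq2 and limma-voom also called 0. For Rel the difference was log2 -0.24 ± 0.12 (-0.52 to 0.04, edgeR FDR 0.717), so a rise in RNA2 as large as that in RNA1 lies within the interval. For IKKbeta it was -0.12 ± 0.11 (-0.35 to 0.12) and for pirk 0.37 ± 0.27 (-0.26 to 1.00). A call in RNA1 and none in RNA2 is therefore no shown difference between the lines for Rel or IKKbeta.

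Within a line, Rel and pirk did not follow the same order of libraries. RNA1 replicate 2 had the highest Rel (321 CPM) and the lowest pirk (27.2 CPM) of the RNA1 libraries. The summed level of 13 secreted genes induced through Rel, such as the diptericins and attacins, was 1765, 3300 and 1260 CPM in RNA1 replicates 1, 2 and 3, highest in the same library. In RNA2, replicate 1 had more Rel (244 against 220.4 CPM) and a higher target sum (3099 against 1937 CPM) but slightly less pirk (51.5 against 53.9 CPM). The controls had target sums of 90.4, 121 and 170.3 CPM, and there pirk was highest in replicate 2 and Rel in replicate 1. These orders rest on 2 or 3 libraries per group and were not tested.

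**Figure D4:**
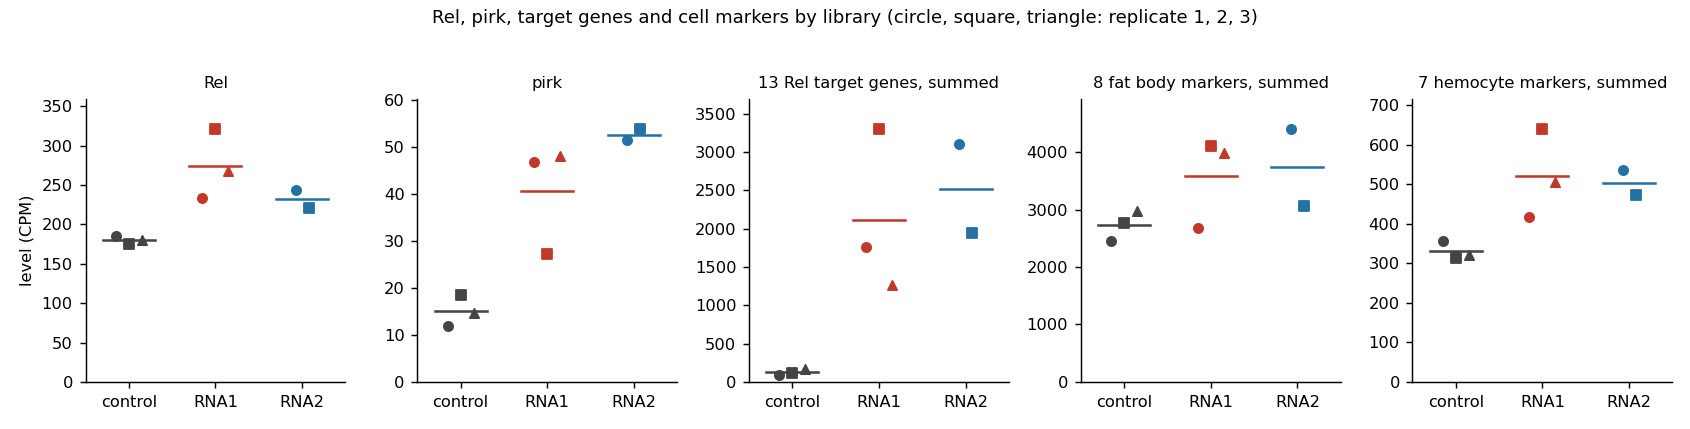
Level of Rel and pirk and summed levels of 13 Rel target genes, 8 fat body markers and 7 hemocyte markers (CPM, axes from 0) in each library, with symbols for replicates 1, 2 and 3 and a line at each group mean. RNA1 replicate 2 is highest among the RNA1 libraries for Rel, the target sum and both marker sums, and lowest for pirk at 27.2 CPM.

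Markers of the cells that mount this response moved in the same comparisons. The lists here and below were chosen with earlier results of these data known, so a count above the share of all genes is no test. For these lists and those that follow, the shares over all tested genes serve as comparison. By edgeR 5.01% rose and 5.25% fell in RNA1, and 1.76% rose and 2.02% fell in RNA2. An unadjusted p under 0.05 was reached by 26.7% in RNA1 and 18.4% in RNA2. The sum of 8 fat body markers was 2458 to 2969 CPM in control, 2671 to 4101 in RNA1 and 3068 to 4402 in RNA2. EdgeR called 3 of the 8 higher in RNA1 and 2 in RNA2, DESeq2 6 and 4, and limma-voom 4 and 2. The fold change was positive for 7 of the 8 in each line, with list medians of log2 0.75 and 0.50. FASN1 was the exception (log2 -0.18 and -0.05). The sum was mostly apolpp and FASN1 (1338 and 1109 CPM in control), so it says little about the other markers. For 7 hemocyte (blood cell) markers the sum was 314.5 to 355.9 CPM in control, 417.5 to 639.7 in RNA1 and 471.6 to 535.4 in RNA2. This sum was mostly crq and Ppn (186.7 and 84.5 CPM in control), so it too says little about the other markers. The marker crq had log2 0.12 in RNA1 and 0.06 in RNA2 and was not called in either. Of the 6 hemocyte markers tested 4 rose in RNA1 and 2 in RNA2 by edgeR and limma-voom (5 and 5 by DESeq2), and the seventh, He, stayed near 0 at 0.173 CPM in control and 0.205 in RNA1. In RNA1 replicate 1 the fat body sum of 2671 CPM lay within the control range, the hemocyte sum of 417.5 CPM and the digestive sum of 61.3 CPM lay above all controls, and Rel (234 CPM), IKKbeta (19.3 CPM) and pirk (46.9 CPM) lay above all controls. The sum of 7 digestive enzymes was 23.1 to 34.5 CPM in control, 61.3 to 157.5 in RNA1 and 88.3 to 179.1 in RNA2. In RNA1 it included Jon65Aiii at 10.8 ± 18.5 CPM and betaTry at 4.44 ± 7.44 CPM, with SDs above their means. Of the 6 tested, edgeR called Amy-p and Amy-d higher in RNA1 and Amy-p in RNA2, while Mal-A1 had log2 -0.11 and -0.06. DESeq2 called 2 in each line, and limma-voom 0 in RNA1 and 1 in RNA2. The part of these cell types in the rise of Rel, IKKbeta and pirk was not tested. Of 5 neuronal markers edgeR called 0 in either knockdown, with 0 in RNA1 and 1 in RNA2 at an unadjusted p under 0.05, and DESeq2 and limma-voom called 0. Of 5 photoreceptor markers 0 were called in either knockdown by these 3 tools and 0 had an unadjusted p under 0.05. Of 5 glial markers all had negative fold changes in RNA2, with a median of log2 -0.34 and 3 at an unadjusted p under 0.05. By edgeR and limma-voom alrm alone was called there (log2 -0.39, edgeR FDR 0.0301), DESeq2 also called Eaat1 lower, and edgeR called 0 in RNA1 (1 at an unadjusted p under 0.05, 0 by DESeq2 or limma-voom). Of 5 muscle markers Act88F rose in both knockdowns (log2 0.88 and 0.81). It was the only 1 of the 5 with a positive fold change in either line, and the list medians were log2 -0.11 and -0.09.

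The neighbours of the 10 genes in the pathway were described from lists chosen by function, again with earlier results of these data known. Upstream, 3 of 5 receptors and co-receptors rose in RNA1 and 1 in RNA2 by edgeR, where 5.01% and 1.76% of all tested genes rose. DESeq2 called 4 and 1 of the 5, and limma-voom 3 and 1. The co-receptor PGRP-SD rose in both, by log2 0.95 ± 0.23 and 1.27 ± 0.25 (edgeR FDR 0.0413 and 0.0381). PGRP-LF and PGRP-LC, a decoy and the signalling receptor, rose in RNA1, while PGRP-LA and the cytoplasmic receptor PGRP-LE had log2 -0.23 and 0.14 there and were not called by edgeR. DESeq2 called PGRP-LA lower in RNA1 (FDR 0.0418, against 0.0645 by edgeR). The exons of PGRP-LF share 602 bases, 44.4% of their length, with UGP on the opposite strand, and those of PGRP-SD share 35 bases with CG7492, so their values are uncertain. Of the 5 amidases, which break down peptidoglycan, 3 were tested and 2 rose in both knockdowns by edgeR and DESeq2, while limma-voom called 1, PGRP-SB1, in each. PGRP-SB1 went from 37.5 ± 8.20 CPM in control to 171 ± 57.9 in RNA1 and 189 ± 70.5 in RNA2. PGRP-SC2 rose from 0.318 ± 0.179 CPM to 8.89 ± 5.64 and 14.8 ± 6.77 CPM, whereas PGRP-LB had log2 0.27 and 0.48 and did not pass.

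Among 9 other genes listed here as inhibitors of Imd signalling 0 rose and 2 fell in RNA1. An unadjusted p under 0.05 was reached there by 7 of the 9, in both directions, against 26.7% of all tested genes. The RING protein dnr1, which restrains Dredd, went from 176 ± 17.4 CPM in control to 119 ± 10.2 in RNA1 (log2 -0.57 ± 0.10, edgeR FDR 0.00852). In RNA2 it had 127 ± 13.9 CPM (log2 -0.47 ± 0.11, FDR 0.0548). Transglutaminase Tg, which can crosslink Rel, went from 48.4 ± 4.05 to 38.0 ± 1.77 CPM in RNA1 (log2 -0.35 ± 0.08, FDR 0.0285) and stood at 38.3 ± 2.36 CPM in RNA2 (log2 -0.34 ± 0.09, FDR 0.0886). In RNA2 edgeR and limma-voom called 0 of the 9 and DESeq2 called 2. There 5 had an unadjusted p under 0.05, against 18.4% of all tested genes. Among the other 7, casp, POSH, CYLD and Charon had positive fold changes in RNA1 and trbd, scny and nub negative ones, and none of these 7 passed.

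The ubiquitin-conjugating enzymes ben, Uev1A and eff, which work with Diap2, lay between log2 -0.16 and 0.19 in RNA1 and between -0.26 and 0.10 in RNA2. The ligase subunits SkpA, Cul1 and slmb lay between -0.09 and 0.18 in RNA1 and between -0.19 and 0.06 in RNA2. The nuclear cofactors akirin, Bap60 and brm lay between -0.01 and 0.15 in RNA1 and between -0.01 and 0.14 in RNA2. EdgeR, DESeq2 and limma-voom called 0 of these 9 genes in either knockdown. Of the 9, 2 reached an unadjusted p under 0.05 in RNA1 and 2 in RNA2, against 26.7% and 18.4% of all tested genes. Below Tak1 in the JNK branch, 2 of 6 genes fell in RNA1, the phosphatase puc and the Fos homologue kay. Of all tested genes 5.25% fell there, and the list median was log2 -0.18. In RNA2 0 of these 6 were called by the 3 tools and 0 had an unadjusted p under 0.05 (median -0.13).

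Downstream, 12 of 13 secreted genes induced through Rel rose in RNA1 and 8 in RNA2 by edgeR, with list medians of log2 4.66 and 4.32. Of all tested genes 5.01% and 1.76% rose. DESeq2 called 13 in each line, and limma-voom called 9 in RNA1 and 7 in RNA2. Those with the largest changes in RNA1 were edin, DptA, CecA1 and DptB. CecA1 had 59.4 ± 51.6 CPM in RNA1, and limma-voom called it in neither line (FDR 0.0947 and 0.171). AttD was not called by edgeR (FDR 0.0765 and 0.0806) or limma-voom in either line but was by DESeq2 (FDR 0.00168 and 0.000271). In RNA2 edgeR also did not call CecA1, CecA2, CecB and CecC (FDR 0.0551, 0.0603, 0.105 and 0.0527). Some cecropins and attacins are close paralogs, so their single values are uncertain, and DptB shares 48 exon bases with CG43109 on the opposite strand. The fold change of Rel itself, log2 0.61 in RNA1 and 0.37 in RNA2, where it was not called, was far smaller than these medians.

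**Figure D5:**
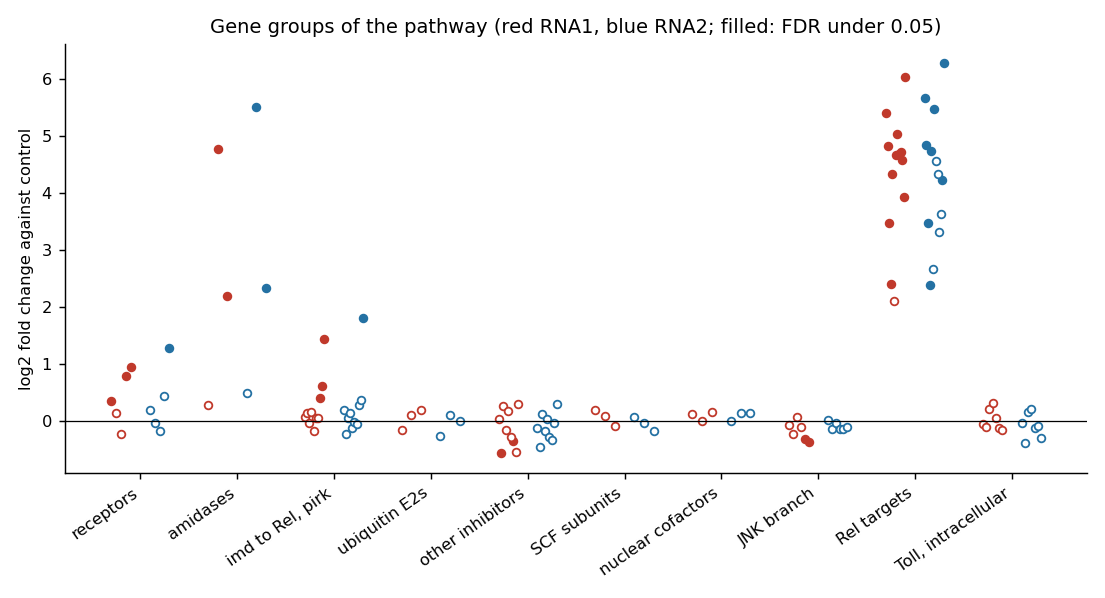
Log2 fold change against control of each tested gene in 10 groups of the Imd and Toll pathways, RNA1 in red and RNA2 in blue, filled where the edgeR FDR was under 0.05. Rises lie at the receptor and amidase end, in pirk, Rel and IKKbeta, and in the Rel targets, which reach 6.03 in RNA1. The intracellular Toll genes lie between -0.40 and 0.31, and Toll target genes are not shown.

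The intracellular Toll pathway, the other route to NF-kappaB in flies, was set beside these genes. Of its 7 genes (Tl, Myd88, tub, pll, cact, dl and Dif) edgeR called 0 in either knockdown. An unadjusted p under 0.05 was reached by 4 in RNA1 and 1 in RNA2, against 26.7% and 18.4% of all tested genes. DESeq2 called 0 and 1, and limma-voom 0 and 0. The NF-kappaB factors of the Toll pathway, dl and Dif, had log2 -0.13 and -0.16 in RNA1 and -0.09 and -0.30 in RNA2, against 0.61 and 0.37 for Rel. Of the 10 Imd genes edgeR likewise did not call 7 in RNA1 and 9 in RNA2. No list of Toll target genes was made, so the output of the Toll pathway is not described here. The difference between the pathways was not tested.

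Likeness was the root mean square difference over the 8 libraries in log2 CPM relative to the control mean, with edgeR's prior count of 2 reads, which shrinks the differences of genes with few reads. By this measure the genes most like Rel were Ppt1 (0.095), CG6638 (0.0952) and CG4210 (0.0978). They had log2 0.66, 0.56 and 0.65 in RNA1 and 0.38, 0.48 and 0.41 in RNA2. The genes most like pirk were Fancl (0.258), CG17107 (0.332) and BomBc1 (0.338), the last a bomanin, a secreted immune peptide. Fancl had only 1 to 12 reads in a library, so its place rests on few reads. These 3 genes had log2 2.09, 1.54 and 1.48 in RNA1 and 2.41, 1.67 and 1.795 in RNA2. No gene outside the list came as close to pirk as 3 genes did to Rel. The measure is not scaled to the size of a change or to spread. Since pirk changed more than Rel and varied more in control, these distances cannot be compared between them.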

How the data were processed

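The authors deposited unnormalized read counts (whole numbers) for each gene, from stranded poly(A) libraries of head RNA, per the labels' protocols. The submitters' processing notes name bcl2fastq 2.17, cutadapt 1.18, FastQC 0.11.8, STAR 2.6.1, SAMtools 1.8, DESeq2 1.24.0 and build BDGP6. Which tool counted the reads, with which strand setting and gene annotation, is not given in the sources used here. Gene names came from a FlyBase identifier table (17549 of 17676 genes matched) and coordinates and exon lengths from Ensembl's BDGP6 annotation, perhaps not the release the authors used.

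The analysis used edgeR 4.0.16 in R 4.3.3. filterByExpr (minimum count 10, minimum total 15) kept 11081 genes, libraries were scaled by TMM, and 1 robust quasi-likelihood model with a mean per group was fitted to all 8 libraries, giving two-sided F tests. FDR is Benjamini-Hochberg over all genes tested. CPM uses the TMM-scaled library sizes. The SE is the size of the log2 fold change over the square root of its F value, and intervals built on it are approximate. Alternatives were DESeq2 1.42.0, limma-voom (limma 3.58.1), other scalings, no filter, fits of the compared groups alone, a replicate block and leaving out each library. The fits were tested on simulated data.

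The genes and lists were chosen with earlier results of these data known. All 10 pathway genes are named; of other lists, up to 4 called genes with the largest change, and the 3 genes most alike in pattern to Rel and pirk. Other genes are named from their lists to account for members, or because few were called, after their values were seen. Nothing in the labels says that replicates came from separate pools of flies, so p-values reflect the spread between these libraries alone, and that spread may be technical. Every library carries batch 1.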

Additional observations from a re-analysis of the deposited data

Results flagged for a closer look

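Fadd was the gene of the 10 whose libraries moved to opposite sides of the control mean in the lines. Relative to that mean, RNA1 replicates 1 to 3 had log2 0.21, 0.03 and 0.19 and RNA2 replicates 1 and 2 had -0.02 and -0.50. The mean difference of RNA2 from RNA1 was -0.40 on this scale. The fitted difference was log2 -0.38 ± 0.18 and did not pass the edgeR test (unadjusted p 0.0576, FDR 0.675). With 149 reads in RNA2 replicate 2, Fadd had the fewest reads of the 10 genes, and without that library the difference between the lines was log2 -0.17. Without RNA2 replicate 1 it was log2 -0.64 (edgeR unadjusted p 0.0113, FDR 0.816).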

How the results depend on the processing

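Of 450 refits of single genes (10 genes, 3 comparisons, 15 alternatives), 425 kept direction and side of the threshold, 12 lost a call, 0 gained one and 13 changed sign, all 13 in genes that were not called. DESeq2, limma-voom, other scalings, no filter and fits of the compared groups alone kept the count of rises at 3 in RNA1 and 1 in RNA2. With the replicate block it was 1 in RNA1 (Rel, edgeR FDR 0.0293) and 0 in RNA2. With 1 library left out it was 1 to 3 in RNA1 and 0 to 1 in RNA2. When 1 RNA2 library is left out, the other is assumed to vary like the other groups. Same-numbered libraries deviated together at r = -0.23 to 0.16 over 7 pairs, 1 of them over 0.1, so the numbers are not taken to pair the samples. In 1 of 8 libraries the closest deviation in another group carried its own number. Over all genes, the replicate block gave 344 rises and 429 falls in RNA1 (555 and 582 without it), 94 and 120 in RNA2 (195 and 224), and 14 and 3 between the lines (21 and 10). DESeq2 gave 345 and 531 in RNA2 and 56 and 70 between the lines, where the unfiltered fit gave 24 and 18 and the fit of the compared groups alone 17 and 5. Library totals in place of TMM gave 733 and 487 in RNA1 and 242 and 186 in RNA2. With 1 library left out, rises ranged from 233 to 565 in RNA1, 59 to 264 in RNA2 and 14 to 25 between the lines, and falls from 243 to 634, 56 to 360 and 2 to 15.

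Signs changed for Dredd in RNA1 with library totals (0.0065), Tab2 in RNA2 with library totals (0.0075) and Diap2 between the lines with the replicate block (0.0051). With 1 library left out, log2 fold changes in RNA1 spanned -0.0754 to 0.0014 for Dredd, -0.0174 to 0.16 for Tab2 and -0.0045 to 0.0947 for key. In RNA2 they spanned -0.0209 to 0.0971 for Dredd, -0.184 to 0.106 for Tab2 and -0.209 to 0.0621 for key. Between the lines they spanned -0.106 to 0.0327 for Diap2, -0.238 to 0.0501 for Tab2, -0.0155 to 0.233 for imd and -0.262 to 0.0101 for key. The causes were not tested. With 2 RNA2 libraries, the intervals in RNA2 are wider than those in RNA1 for all 10 genes.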
